A study of Mus musculus with 24 samples.

Results

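The opioid system of the nucleus accumbens (NAc) was examined through 6 listed genes of the 52636 counted: the receptor genes Oprm1 (μ), Oprk1 (κ), Oprd1 (δ) and Oprl1 (nociceptin receptor), and the peptide precursor genes Pdyn (prodynorphin) and Pnoc (prepronociceptin). The genes were taken from a list of names rather than by a threshold on their values, with earlier results of these data known. RNA-seq was done on bilateral NAc punches of 24 C57BL/6 mice of 50 days, 1 library per mouse, with 6 animals in each of 4 groups, the Con and MSUS females and the Con and MSUS males. MSUS pups went through maternal separation with unpredictable maternal stress from day 1 to day 14, for 2 h per day by the sample labels, while the study's methods give a longer time. Con pups were not separated, no group carried a transgene or a drug treatment, and the labels do not say which animals shared a litter.

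Opioid receptors are receptors on the cell surface that couple to inhibitory G proteins, lower cAMP, open inwardly rectifying potassium channels and close calcium channels. Dynorphins, cut from prodynorphin, act mainly on the κ receptor, enkephalins act mainly on the δ and μ receptors, and nociceptin acts on its own receptor, which is related to the others in sequence but binds the classical opioid peptides poorly. In the NAc, prodynorphin is known from medium spiny neurons of the direct pathway and proenkephalin from those of the indirect pathway, while κ receptors also sit on dopamine terminals whose cell bodies, and mRNA, lie outside the region.

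The opioid and nociceptin peptides share an opening motif, shown here in the coding strand because these 2 precursors varied most between animals. Each line holds the 17 codons that begin at the motif, 5′ to 3′, with the 4 codons of the motif in capitals, from the GENCODE M21 transcripts on GRCm38. Opioid peptides open with tyrosine and nociceptin opens with phenylalanine. Dynorphin A and dynorphin B lie in the last of the 4 exons of Pdyn on chromosome 2, minus strand, and nociceptin in exon 3 of the 4 exons of Pnoc on chromosome 14, minus strand. The line for dynorphin B runs past the end of this shorter peptide into the codons that follow.
dynorphin A, Pdyn, chr2:129688094-129688144: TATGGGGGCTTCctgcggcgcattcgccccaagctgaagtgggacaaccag
dynorphin B, Pdyn, chr2:129688037-129688087: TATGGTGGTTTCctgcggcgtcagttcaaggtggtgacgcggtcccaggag
nociceptin, Pnoc, chr14:65404842-65404892: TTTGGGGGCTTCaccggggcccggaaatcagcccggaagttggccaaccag

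The authors deposited raw counts per gene, and those on the sense strand summed to between 39923666 and 70575745 per library. Values are given as CPM, counts over the library's TMM-scaled total times 1000000. Xist and the Y-linked Ddx3y matched the labelled sex in all 24 libraries. The 6 medium spiny neuron markers (Ppp1r1b, Pde10a, Drd1, Drd2, Adora2a and Bcl11b) summed to between 1721 and 4124 CPM, with no marker at 0 in any library. The 5 cortical excitatory markers (Slc17a7, Tbr1, Neurod6, Emx1 and Cux2) had at least 1 count each in every library and summed to between 72.4 and 1443 CPM. Cux2 did not share the wide range of the others. Its highest value was 1.71 times its lowest, against 279 times for Slc17a7. The lowest sum, in MSUS female 5, was mostly Cux2, with 12 counts of Neurod6 and 1 of Emx1. Low sums thus understate how far the other cortical markers fell. Con female 3 and MSUS male 6 stood apart, with the lowest medium spiny sums (1721 and 1999 CPM) and cortical sums of 1442 and 1443 CPM. The correlations are given with and without these 2 libraries, as are the fold changes that moved most when either was left out.

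All 6 genes were expressed, and the precursor of dynorphin was by far the most abundant transcript per length. Per kb of the union of annotated exons, Pdyn had 68.1 ± 17.1 CPM per kb (SD, n = 24), Oprl1 8.62 ± 0.811, Oprd1 6.88 ± 0.989, Oprk1 5.87 ± 1.03, Oprm1 3.88 ± 0.635 and Pnoc 0.929 ± 0.369 CPM per kb. Pdyn exceeded Oprl1 in 24 of 24 libraries, Oprk1 exceeded Oprm1 in 24 of 24 and Oprm1 exceeded Pnoc in 24 of 24. Oprl1 exceeded Oprd1 in 22 libraries and Oprd1 exceeded Oprk1 in 19, with SDs that overlap for both pairs. The order of the 4 receptor genes depended on the length used. Divided by the longest transcript, Oprm1 (12.9 CPM per kb) came above Oprk1 (11.5), Oprl1 (10.4) and Oprd1 (6.88), because Oprm1 has 31 annotated transcripts whose exons together span 8037 bases while the longest holds 2420. Pdyn stayed highest and Pnoc lowest on both lengths.

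Among the other opioid precursors, proenkephalin (Penk, the source of the enkephalins) had 508 ± 122 CPM per kb (SD, n = 24) and proopiomelanocortin (Pomc, the source of β-endorphin) 0.736 ± 0.167 CPM per kb, with only 28 to 92 counts per library. The Pomc level was thus close to that of Pnoc, which had 40 to 215 counts per library, and counting error weighs more on these genes than on Pdyn with 3812 to 14399 counts.

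Oprm1 encodes the receptor for morphine and β-endorphin and lies at chr10:6758506-7038198 on the plus strand of GRCm38. Its level ran from 20.5 to 32.8 CPM in Con females (median 31.7), from 27.3 to 38.1 in MSUS females (median 33.7), from 23.3 to 37.1 in Con males (median 31.3) and from 21.7 to 39.6 in MSUS males (median 31.2). The groups overlapped throughout, and the lowest of all 24 values was that of Con female 3. Exons of Ipcef1 on the opposite strand overlap those of Oprm1 over 96 bases, and 7.25% of the pairs at Oprm1 were counted on the other strand, against 0.186% to 2.93% for the other 5 genes.

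Oprk1, at chr1:5588466-5606131 on the plus strand, encodes the dynorphin receptor. It ran from 32.5 to 62.4 CPM in Con females (median 57.7), from 46.0 to 62.2 in MSUS females (median 54.4), from 44.9 to 67.1 in Con males (median 60.2) and from 39.2 to 62.7 in MSUS males (median 53.1). The Con female values split into 4 animals near the upper end and 2 low animals, replicates 2 and 3, which were also the lowest of all 24 animals.

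Oprd1, at chr4:132110726-132144486 on the minus strand, encodes the main enkephalin receptor. Its level was between 23.8 and 38.2 CPM in Con females (median 30.2), 23.1 and 30.8 in MSUS females (median 27.0), 23.4 and 32.4 in Con males (median 27.1) and 21.5 and 31.8 in MSUS males (median 23.7). Con female 5 was the highest of all animals, and 1 of 6 MSUS females lay above the Con female median.

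Oprl1, at chr2:181715016-181720985 on the plus strand, encodes the nociceptin receptor. It was the steadiest member, between 28.8 and 34.7 CPM in Con females (median 31.2), 29.2 and 33.9 in MSUS females (median 31.1), 29.1 and 41.1 in Con males (median 32.1) and 30.0 and 40.0 in MSUS males (median 33.1). Its highest values were those of Con male 6 and MSUS male 4.

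Pdyn, at chr2:129686565-129699844 on the minus strand, ran from 73.1 to 250.7 CPM in Con females (median 221), from 176 to 242 in MSUS females (median 227), from 127 to 242 in Con males (median 217) and from 92.0 to 216 in MSUS males (median 198). The 4 lowest values belonged to Con female 3, MSUS male 6, Con female 2 and Con male 5, and all other animals had at least 176 CPM. The highest Con female value was 3.43 times the lowest, against 1.38 times in MSUS females.

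Pnoc, at chr14:65400673-65425472 on the minus strand, ran from 0.964 to 3.30 CPM in Con females (median 1.77), from 1.10 to 2.47 in MSUS females (median 1.84), from 0.725 to 3.56 in Con males (median 1.92) and from 1.23 to 3.62 in MSUS males (median 2.20). MSUS male 6, Con male 6, Con female 3 and Con male 5 were highest, so that 3 of the 4 animals lowest in Pdyn were among the 4 highest in Pnoc.

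**Figure D1:**
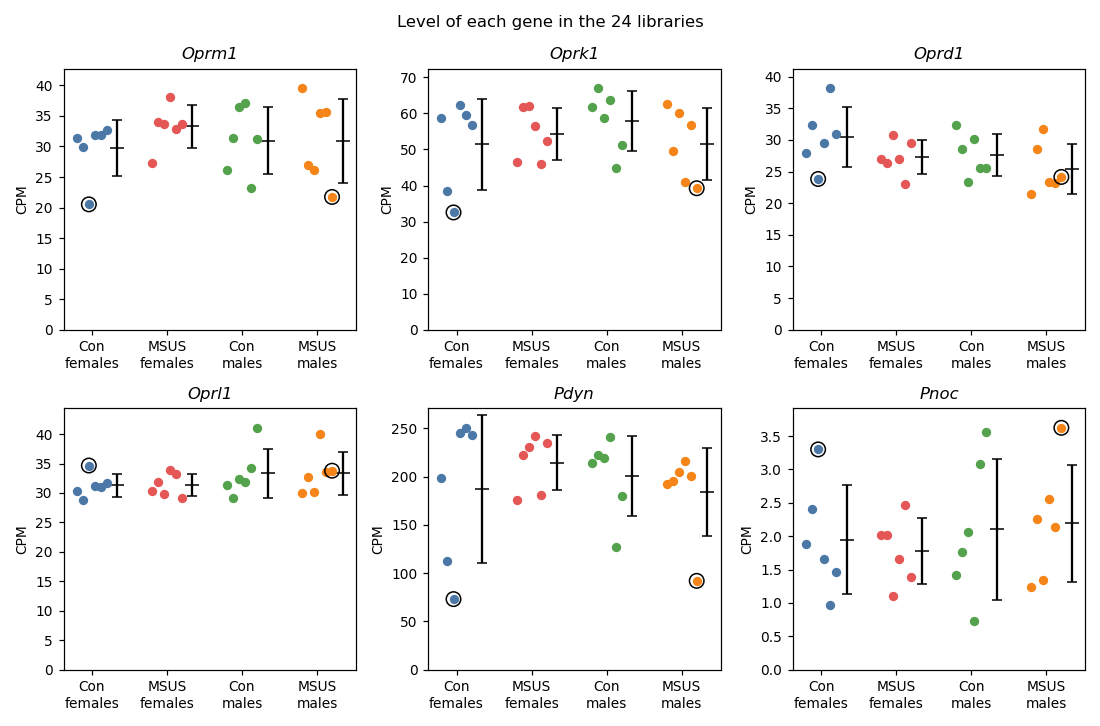
CPM of the 6 genes in the 24 libraries by group, with each point 1 animal, the horizontal dash the mean of 6 animals and the bar its SD, and rings around Con female 3 and MSUS male 6. The groups overlap for every gene, and the ringed libraries lie low for Oprm1, Oprk1 and Pdyn and high for Pnoc.

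The spread between animals of a group was wide for the precursors and narrow for Oprl1. The pooled SD within groups on the log2 scale was 0.61 for Pnoc, 0.48 for Pdyn, 0.28 for Oprk1, 0.26 for Oprm1, 0.19 for Oprd1 and 0.13 for Oprl1. Among the 14269 genes with a mean log2 CPM at or above that of Pnoc, the median SD was 0.12, and 98.61% had a smaller SD than Pnoc and 97.03% a smaller SD than Pdyn. Oprl1 was near the middle, with 53.82% of these genes below it.

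Over all 24 animals most pairs of the 6 genes were correlated, and each gene was correlated with the medium spiny markers of the punch. Correlations of log2 CPM were computed over the 24 animals after subtraction of group means, for 15 pairs of members and for each member with the mean log2 CPM of the medium spiny and of the cortical markers, 27 relations in all, with 100000 permutations and two-sided p-values adjusted over the 27. All measures come from the same libraries and share their scaling. Where animals were left out, the group means subtracted were still those of all 24 animals. These values thus keep some influence of the animals left out. The permutations ran freely over the 24 animals rather than within groups, which can make the p-values somewhat too small. At an adjusted p under 0.10, 12 of the 15 pairs and 8 of the 12 relations with a score passed by r, and 10 and 8 by rho. The share of all genes that would pass with each other or with a score was not computed. These counts therefore do not set the 6 genes apart from other genes of the punch. Bulk RNA cannot tell fewer cells of a type from less RNA per cell.

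Pdyn and Oprk1, ligand and receptor, had r = 0.85 and rho = 0.68 (permutation p = 1e-05 for r, the smallest the permutations can give, adjusted p = 6.75e-05). Without the 2 animals farthest from the median of Oprk1, r was 0.76 (permutation test, adjusted p = 0.00054), without Con female 3 and MSUS male 6 it was also 0.76, and within the library sets numbered 1 to 12 and 13 to 24 it was 0.95 and 0.74. Pdyn and Oprm1 also varied together (r = 0.74, rho = 0.68, permutation, adjusted p = 0.00031), with r = 0.53 without the 2 animals farthest in Oprm1, which were Con female 3 and MSUS male 6, and 0.71 and 0.73 within the sets.

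Pnoc ran opposite to Pdyn and to 3 of the receptor genes. With Oprk1 its r was -0.76 and its rho -0.77 (permutation test, adjusted p = 0.00027), with Pdyn r was -0.70 and rho -0.66 (adjusted p = 0.00040 by permutation), and with Oprd1 r was -0.60 and rho -0.60 (adjusted p = 0.0047 by permutation). Without the 2 animals farthest from the median of the partner gene (of Pdyn itself in its pair), a different pair of animals for each gene, r was -0.73, -0.62 and -0.50. Without Con female 3 and MSUS male 6 it was -0.69, -0.62 and -0.55, and all 3 relations passed both ways, with negative r within both library sets. Pnoc and its receptor gene Oprl1 instead varied in the same direction (r = 0.57, rho = 0.64, permutation, adjusted p = 0.0070), with r = 0.51 without the 2 animals farthest in Oprl1 and 0.55 without Con female 3 and MSUS male 6.

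Of the remaining pairs that passed, 4 lost the call without the 2 animals farthest in the gene named first. These were Oprm1 with Oprk1 (r from 0.61 to 0.39), Oprm1 with Pnoc (from -0.52 to -0.34), Oprk1 with Oprd1 (from 0.42 to 0.34) and Oprd1 with Pdyn (from 0.44 to 0.36), the last 2 with smaller shifts of r. Without Con female 3 and MSUS male 6, chosen after the data were seen, the same 4 pairs did not pass (r = 0.39, -0.34, 0.26 and 0.27), and neither did Oprd1 with Oprl1 (-0.39, adjusted permutation p = 0.12), which left 7 of the 15 pairs. With the animals farthest in the first gene left out, Oprk1 with Oprl1 (r = -0.49, and -0.56 without the 2 animals) and Oprd1 with Oprl1 (-0.45 and -0.43) kept it. By rho, Oprk1 with Oprd1 (0.33) and Oprd1 with Pdyn (0.34) did not pass in the whole set. Oprm1 with Oprd1 (r = -0.03), Oprm1 with Oprl1 (r = -0.06) and Oprl1 with Pdyn (r = -0.20) did not pass.

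The medium spiny score, which contains none of the 6 genes, passed with all of them. It had r = 0.89 with Pdyn (rho = 0.79), 0.82 with Oprk1 (rho = 0.78), 0.67 with Oprm1 (rho = 0.48), 0.61 with Oprd1 (rho = 0.61), -0.47 with Oprl1 (rho = -0.49) and -0.79 with Pnoc (rho = -0.87), with adjusted permutation p-values for r between 6.75e-05 and 0.037. Without the 2 animals farthest from the median score, again Con female 3 and MSUS male 6, which changed r for Oprm1 to 0.38 and ended its call, r was 0.75 for Pdyn, 0.71 for Oprk1, 0.56 for Oprd1, -0.46 for Oprl1 and -0.80 for Pnoc. Within both library sets the signs were the same for all 6 genes. The part of this score in the correlations between pairs of members was not tested. The cortical score passed with Oprm1 (r = -0.73, rho = -0.66, adjusted permutation p = 0.00031) and Pdyn (r = -0.57, rho = -0.53, adjusted permutation p = 0.0069) and with no other member. Without Con female 3 and MSUS male 6 these were -0.67 and -0.45 and still passed, and Oprl1 passed as well (-0.47, adjusted permutation p = 0.055).

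**Figure D2:**
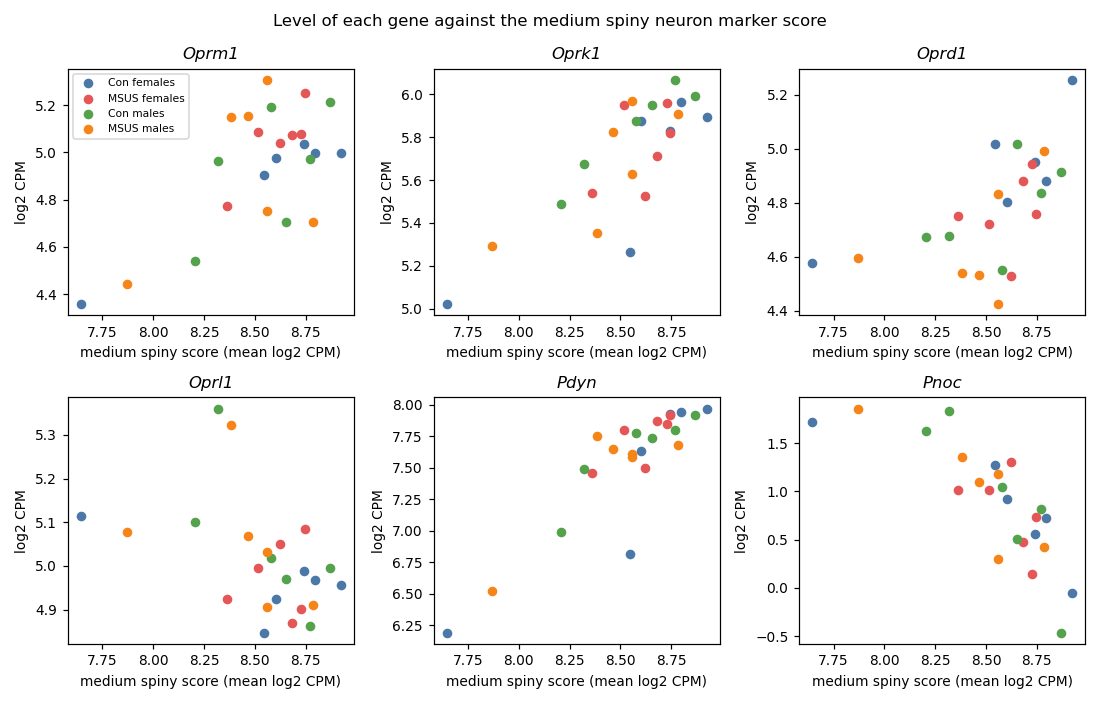
Log2 CPM of each gene (vertical axes) against the medium spiny score, the mean log2 CPM of 6 markers (horizontal axes), with each point 1 of the 24 animals coloured by group. Pdyn and Oprk1 rise with the score and Pnoc falls with it, and the 2 points farthest to the left are Con female 3 and MSUS male 6.

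**Figure D3:**
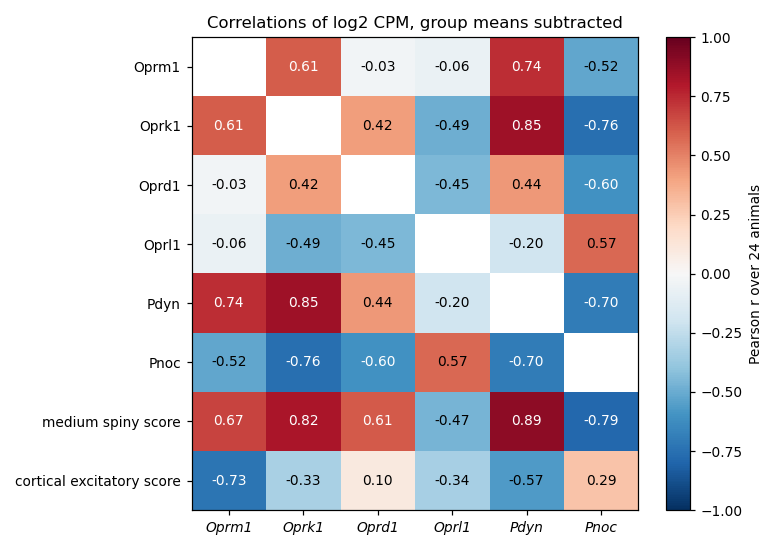
Pearson r over 24 animals, group means subtracted, for each gene (columns) with each other gene and with both marker scores (rows), in red where positive and blue where negative. Pdyn with Oprk1 stands at 0.85 and Pdyn with the medium spiny score at 0.89, while Pnoc is negative with every gene but Oprl1.

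The genes most like each member were sought among 14313 genes with a mean of at least 100 counts, as the 3 with the highest r over the 24 libraries with group means subtracted. For Pdyn these were Pkp2 (r = 0.98), Zfp503 (0.98) and Epha8 (0.97), and for Oprk1 Kcng3 (0.94), Lyst (0.93) and Rbms1 (0.93). Oprm1 was most like Mok (0.95), Thbs3 (0.95) and Rab36 (0.95), and Oprl1 most like Nhsl1 (0.90), Mtss1l (0.87) and Psd2 (0.87). Pnoc was most like Bag2 (0.91), Ppp1r26 (0.90) and Dscam (0.89). The gene most like Oprd1 was Gm37711 (r = 0.95), an annotated gene model of no assigned type that lies 1363 bases beyond the 3′ end of Oprd1 on the same strand, followed by Inf2 (0.90) and Ccm2 (0.88). These values describe likeness only and were picked as the highest of all genes.

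The first comparison asked whether early-life stress altered these genes in females. None of the 6 passed the test (edgeR's quasi-likelihood F test, adjusted p below 0.10), in a comparison in which 25.1% of 20571 tested genes did (13.1% higher and 11.9% lower), and none had an unadjusted p under 0.05. Fold changes are log2 of MSUS over Con. Oprm1 was at 0.17 (SE 0.11, 95% interval -0.07 to 0.40) and Oprd1 at -0.15 (SE 0.10, -0.37 to 0.06), both with an adjusted p of 0.30. Oprk1 was at 0.08 (SE 0.16, interval -0.27 to 0.43, edgeR adjusted p = 0.75).

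The precursors had the widest intervals, Pdyn at 0.20 (SE 0.27, -0.39 to 0.80, edgeR adjusted p = 0.64) and Pnoc at -0.13 (SE 0.27, -0.71 to 0.45, adjusted p = 0.77). A change of Pdyn by 1.74-fold upward or of Pnoc to 0.613 of its Con level would thus lie inside the intervals. Oprl1 was bounded most closely, at 0.01 (SE 0.05, interval -0.10 to 0.11, edgeR adjusted p = 0.91), which with 95% confidence limits a change to between 0.936 and 1.08 times the Con level.

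Several of these values depended on Con female 3. Without it, Pdyn went from 0.20 to 0.04, Oprm1 from 0.17 to 0.08, Oprk1 from 0.08 to -0.02 and Pnoc from -0.13 to 0.08, while Oprd1 went from -0.15 to -0.22 with an edgeR adjusted p of 0.10. Within the 2 library sets of 3 against 3 animals, differences of mean log2 CPM were alike for Oprm1 (0.18 and 0.16), Oprd1 (-0.14 and -0.16) and Pdyn (0.34 and 0.31). For Pdyn, each set held a low Con female, replicate 3 (73.1 CPM) in the first and replicate 2 (113 CPM) in the second. The other Con females had at least 198 CPM. The medium spiny score overlapped between Con females (7.64 to 8.92) and MSUS females (8.36 to 8.75). With that score as a covariate, Oprm1 was higher in MSUS females (0.14, edgeR adjusted p = 0.039) and Oprd1 lower (-0.17, adjusted p = 0.095), in a fit that called 34.5% of all genes. That was the only alternative in which a member passed.

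The cortical score was lower in MSUS females (0.775 to 5.24, median 2.72) than in Con females (3.51 to 6.22, median 4.81), with overlap, and 1 of the 5 cortical markers, Emx1, passed the test. The summed cortical level was 194 to 1442 CPM in Con females and 72.4 to 616 CPM in MSUS females. Cux2, which makes up most of the lowest sum, was at 0.04, while the log2 fold changes of the other cortical markers lay between -1.88 and -1.67. With the cortical score as a covariate, Oprm1 was at -0.01, Oprk1 at -0.08, Pdyn at -0.10 and Pnoc at 0.15, with none called. The share of read pairs assigned to no gene did not overlap, at 31.0% to 34.8% in Con females and 36.3% to 43.9% in MSUS females, and with it as a covariate Oprm1 was at 0.29, Pdyn at 0.38 and Oprd1 at -0.23, again with none called. With no overlap, that fit cannot well separate the share from MSUS. Markers of other cell types also passed lower in MSUS females, 2 of 4 for GABAergic interneurons (Pvalb at -0.85 and Sst at -0.39, edgeR adjusted p = 0.071 and 0.068), 3 of 4 for oligodendrocytes (Mbp at -0.30, Mog at -0.25 and Mobp at -0.30, adjusted p from 0.023 to 0.087) and 1 of 3 for astrocytes (Aldh1l1 at -0.11, adjusted p = 0.0997). None of the 3 cholinergic, 4 microglial, 3 endothelial or 6 medium spiny markers passed. The summed oligodendrocyte level was 3570 to 5509 CPM in Con females and 3278 to 4020 CPM in MSUS females, and the summed GABAergic level was 136 to 242 CPM and 115 to 158 CPM, with no marker at 0. The part of the cell types in the punch and of the unassigned share in the fold changes was not tested.

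In males, MSUS against Con gave no call among the 6 genes or among all genes (0% of 20691 tested by edgeR, 0 by DESeq2, with 191 genes at an unadjusted p under 0.05 by edgeR, none of them a member). Oprm1 was at -0.003 (SE 0.16), Oprk1 at -0.17 (SE 0.13), Oprd1 at -0.12 (SE 0.10), Oprl1 at -0.00005 (SE 0.09), Pdyn at -0.13 (SE 0.20) and Pnoc at 0.07 (SE 0.35). Of the 6 MSUS males, 0 lay above the Con male median for Pdyn and 1 for Oprk1, but the ranges overlapped. The library sets differed in direction for Pdyn (0.14 and -0.44), Oprk1 (0.13 and -0.49), Oprm1 (0.24 and -0.27) and Pnoc (-0.45 and 0.71), with MSUS male 6 in the second set. Without MSUS male 6, Pdyn was at 0.01 and Oprk1 at -0.10.

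The sexes were compared within each condition. In Con animals 2.64% of 20641 genes passed (544 genes, but 20 without Con female 4 and 1395 without Con male 5) and none of the 6 did, with female over male log2 fold changes of -0.04 (SE 0.13) for Oprm1, -0.16 (SE 0.17) for Oprk1, 0.15 (SE 0.11) for Oprd1, -0.08 (SE 0.07) for Oprl1, -0.09 (SE 0.29) for Pdyn and -0.10 (SE 0.36) for Pnoc. Adjusted p-values by edgeR ran from 0.49 to 0.90. In MSUS animals 0.135% of 20714 genes passed and again no member, with values from -0.31 (SE 0.26) for Pnoc to 0.22 (SE 0.17) for Pdyn and adjusted p-values by edgeR from 0.69 to 0.85. Without Con female 3 the Con values were 0.02 for Oprm1, -0.08 for Oprk1, 0.06 for Pdyn and -0.33 for Pnoc. Without MSUS male 6 the MSUS values were 0.09 for Pdyn and -0.11 for Pnoc, and no member passed in either case.

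The group-by-sex interaction asked whether the MSUS effect differed between females and males. It reached no call over 21500 genes (0%), with 4031 at an unadjusted p under 0.05 by edgeR and 408 called by DESeq2, none of them a member. Its log2 values were 0.16 (SE 0.20) for Oprm1, 0.25 (SE 0.22) for Oprk1, -0.04 (SE 0.15) for Oprd1, 0.004 (SE 0.10) for Oprl1, 0.32 (SE 0.35) for Pdyn and -0.20 (SE 0.47) for Pnoc. Without both Con female 3 and MSUS male 6, an alternative added after the data were seen, Pdyn was at 0.02, Oprm1 at -0.003 and Pnoc at 0.21.

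**Figure D4:**
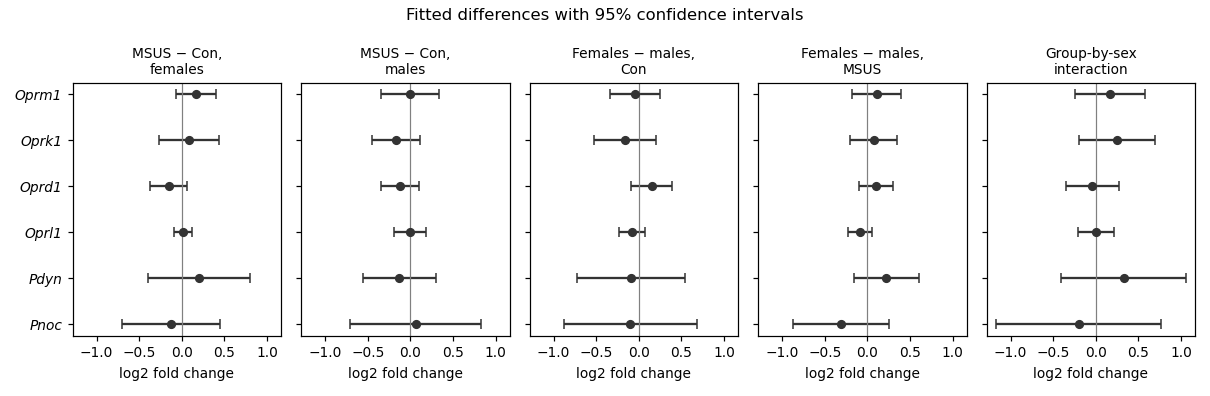
Fitted log2 fold changes of the 6 genes with 95% confidence intervals in the 5 comparisons (horizontal axes in log2 units, rows the genes). All intervals include 0, with the narrowest for Oprl1 and the widest for Pnoc and Pdyn.

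The share of other pathway genes that passed in MSUS females was near that of all genes. Of 35 listed genes for precursors, peptide processing, peptide breakdown, G proteins and effectors, desensitization and Pdyn transcription, 10 passed in females (28.6%, beside 25.1% of all genes), 9 of them lower (25.7%, beside 11.9% of all genes) and 1 higher. The difference between these shares was not tested. In the same comparison 3 of 4 oligodendrocyte, 2 of 4 GABAergic and 1 of 5 cortical markers passed lower. The median log2 fold change of the 35 pathway genes was -0.09 against -0.003 over all genes tested. None of the 35 passed in males (median 0.01), 1 passed between the sexes in Con animals, and none passed between the sexes in MSUS animals or in the interaction.

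Of 5 peptide processing genes, 3 passed, all lower, where 11.9% of all genes were lower, a count too small to set the list apart. Pcsk2, the prohormone convertase that cuts dynorphin and enkephalin peptides from their precursors, had 343 to 412 CPM in Con females (median 360) and 277 to 326 in MSUS females (median 310), with no overlap, and fell by 0.26 on the log2 scale (SE 0.05, edgeR adjusted p = 0.0089). Pcsk1n, the inhibitor of convertase 1, ran from 196 to 210 CPM in Con females and from 147 to 189 in MSUS females, also apart, and fell by 0.26 (SE 0.05, edgeR adjusted p = 0.0079). Cpe, the carboxypeptidase that trims the cut ends, had 1099 to 1327 CPM in Con females and 988 to 1144 in MSUS females and fell by 0.19 (SE 0.05, edgeR adjusted p = 0.024). Pcsk1 was at -0.46 (SE 0.28, edgeR adjusted p = 0.27) and Scg5, the chaperone of Pcsk2, at -0.05 (SE 0.04, adjusted p = 0.36), and neither passed.

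Among 6 peptide breakdown genes, Dpp3, a dipeptidyl peptidase that cleaves enkephalins, fell by 0.17 (SE 0.05, edgeR adjusted p = 0.028) from 27.7 to 32.1 CPM in Con females to 23.9 to 27.6 in MSUS females. Ece2, a metalloprotease that processes several neuropeptides, was the single riser, with 28.6 to 36.3 CPM in Con females and 31.1 to 44.6 in MSUS females (log2 fold change 0.29, SE 0.09, edgeR adjusted p = 0.039). Npepps lay just outside the threshold at -0.07 (SE 0.03, edgeR adjusted p = 0.10).

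Of 11 G protein and effector genes, 3 passed, all lower, where 11.9% of all genes were lower, a count too small to set the list apart. Gnao1, the abundant neuronal Go α subunit, had 767 to 863 CPM in Con females and 687 to 749 in MSUS females and fell by 0.20 (SE 0.04, edgeR adjusted p = 0.0083). Gnaz, the Gz α subunit, had 73.8 to 86.4 CPM in Con females and 63.8 to 72.0 in MSUS females and fell by 0.19 (SE 0.05, edgeR adjusted p = 0.019). Kcnj9, a subunit of the potassium channels that these receptors open, fell by 0.56 (SE 0.22, edgeR adjusted p = 0.098), with ranges of 35.8 to 79.2 and 28.5 to 46.4 CPM that overlapped. The Gi α genes Gnai1, Gnai2 and Gnai3 lay between -0.08 and -0.02 and did not pass.

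In the desensitization list, Grk2, the kinase that phosphorylates active receptors, fell by 0.26 (SE 0.08, edgeR adjusted p = 0.039), 1 of 9 genes. Of the factors named for Pdyn, Kcnip3, which encodes the repressor DREAM, fell by 0.38 (SE 0.14, edgeR adjusted p = 0.084), while Creb1 was at 0.10 (SE 0.06, adjusted p = 0.22). The other precursors did not pass, Penk at 0.14 (SE 0.25, edgeR adjusted p = 0.74) and Pomc at -0.01 (SE 0.15, adjusted p = 0.97).

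The 10 calls depended on the fit to different degrees. Gnao1, Pcsk1n and Pcsk2 passed in 22 of 23 alternatives each, Cpe, Dpp3, Gnaz and Grk2 in 21, and Ece2 in 20. With the cortical score as a covariate 3 passed, Pcsk1n (-0.32, edgeR adjusted p = 0.021), Gnao1 (-0.14, adjusted p = 0.086) and Pcsk2 (-0.17, adjusted p = 0.097), with the medium spiny score 16 passed, and with the share of unassigned pairs as a covariate 0 of the 35 and 0 of all genes passed. That share did not overlap between Con and MSUS females, so a fit with it cannot well separate it from MSUS. Kcnip3 and Kcnj9 passed in 9 of 23 alternatives each and lost the call without Con female 3. Between the sexes in Con animals, Pcsk1n was higher in females (196 to 210 CPM) than in males (165 to 189), without overlap (log2 fold change 0.21, SE 0.04, edgeR adjusted p = 0.058), and passed in 12 of 23 alternatives.

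**Figure D5:**
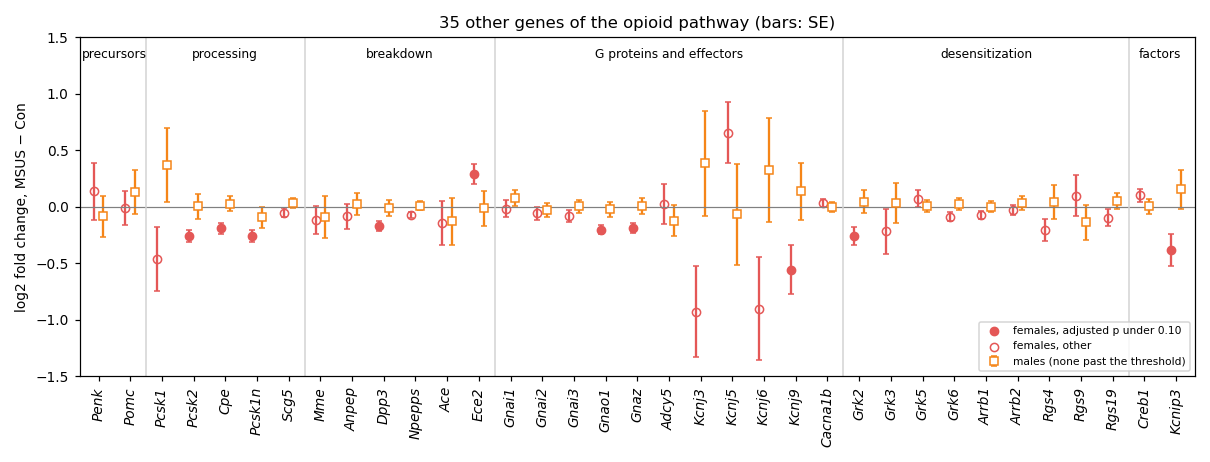
Log2 fold changes of MSUS over Con with SE bars for the 35 other pathway genes, females as circles (filled where the adjusted p is under 0.10) and males as squares, grouped by role. Filled circles lie below 0 for 9 genes and above 0 for Ece2, and no male value passed.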

How the data were processed

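The authors depleted ribosomal RNA, sequenced 100 bp pairs, trimmed adapters and aligned them to mm10 with STAR 2.6.1b and GENCODE M15, and deposited STAR's raw counts per gene (pairs with 1 mapping place) in 3 strand settings. The sense column was used. Pairs with several mapping places, or over exons of more than 1 gene on the strand counted, are not in these counts, which lowers genes with near-identical copies. Gene names, positions and lengths came from GENCODE M21 on GRCm38, the same assembly. The lowest chi-square per gene between libraries of a group was 4.62 over 60 pairs, so no library repeated the counts of another in its group.

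Genes were filtered with filterByExpr (minimum count 10), scaled by TMM and tested with the robust quasi-likelihood F test of edgeR 4.0.16 in R 4.3.3 over all genes, with Benjamini-Hochberg adjustment and a threshold of 0.10. Each comparison of a pair of groups used those groups alone. SE is the log2 fold change over the square root of F. Intervals cover 95%. Correlations were computed in Python 3.11.15 with numpy 2.4.6. The fits were tested on simulated data made from the female counts over 20348 genes. In these, 59 of 100 genes changed by 0.6 and 35 of 100 changed by 0.3 on the log2 scale were called, along with 10 unchanged genes. Only these genes were changed, while 25.1% of genes passed in the female data, where the adjustment is thus less strict. The shares called do not give the power of that fit, in which small changes can still be missed. The members and lists were chosen with earlier results of these data known. A cortical marker and a medium spiny marker are not reported here and were left out of their lists and scores after the data were seen. All 6 members and 35 pathway genes are reported or counted, and those named are Penk, Pomc and the genes past the threshold, with list neighbours added after their values were seen.

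Alternatives were DESeq2 1.42.0, its size factors, other count filters, unstranded counts, a block for replicate number, covariates for library set, the unassigned share of pairs and both marker scores, all 24 animals in 1 fit and each animal left out. The p-values measure the spread between animals, some of which may be litter mates. The estrous stages were not used, since the labels give them to some males and leave 6 females without one. The study's methods report high- and low-estrogenic animals in equal numbers in each female group, and a model for females that included the stage. The female fits here leave any spread due to the stage unmodelled.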

Additional observations from a re-analysis of the deposited data

Results flagged for a closer look

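Of 24 sets of 6 animals examined (6 genes in 4 groups), 2 held an animal far from the rest, and chance gives about 1 in 20. Oprm1 in Con female 3 was 20.5 CPM, with the nearest Con female at 29.9 CPM and a gap of 0.77 of the range. Pdyn in MSUS male 6 was 92.0 CPM, with the nearest MSUS male at 192 CPM and a gap of 0.81 of the range. Both libraries also had the lowest medium spiny scores of all animals. The part of that score in these values was not tested.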

How the results depend on the processing

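No member was called in any of the 5 comparisons under any alternative but 1, the medium spiny score as a covariate in females, which called 2 of 6. With each animal left out in turn, 0 of 6 were called. Of 762 fold changes of members under alternatives, 88 had the other sign from the values reported, none of them called. Of the 35 pathway genes in females, 10 were called, against 0 with the share assigned to no gene as a covariate, 3 with the cortical score, 16 with the medium spiny score, and 8 to 15 with an animal left out (15 without MSUS female 1). The share assigned to no gene did not overlap between Con and MSUS females, so its fit cannot well separate it from MSUS. Between the sexes in Con animals the 1 call became 2 with DESeq2, without regard to strand and with the medium spiny score, 0 with the share assigned to no gene, the cortical score and all animals in 1 fit, and 0 to 2 with an animal left out. The interaction gave 0 to 2, with Cpe and Grk2 called without MSUS male 1.

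Over all genes, calls in females ranged from 0 with the share assigned to no gene and 1768 with the cortical score to 7102 with the medium spiny score. Between the sexes in Con animals they ranged from 11 to 1731 over all alternatives and from 20 to 1395 with 1 animal left out. Each of 9 of the 12 animals, when left out (Con females 1, 2, 4 and 5 and Con males 1, 3, 4, 5 and 6), moved that count by over 1.5 times. Between MSUS sexes they ranged from 14 to 159. The interaction called 408 with DESeq2 and 3031 without MSUS male 1. The causes were not tested.

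With the replicate number as a block, 0 of 6 members were called in each comparison, 0 of 35 pathway genes were called between the sexes in Con animals, and 12 of all genes. Of the 6 same-numbered pairs in each comparison, 2 or 3 had deviations from the group means correlated above 0.1 (r from -0.37 to 0.40), and 1 to 4 of 12 animals correlated best with their own number. The labels tie no number to a litter or day, and odd and even numbers fall in different library sets, so the animals were not treated as paired.

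Of the 15 pairs of members, 12 passed and 8 to 12 did under the alternatives chosen first, against 7 without Con female 3 and MSUS male 6, and of the 12 relations with scores 7 to 8 did. Receptor levels per kb of longest transcript rather than exon union were 12.9 for Oprm1, 11.5 for Oprk1 and 10.4 for Oprl1. With 40 to 215 counts per library, counting limits Pnoc.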
